A study of Mus musculus with 4 samples.

Results

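Desmosome transcripts were measured through every non-control array probe that the scanner files name Dsg1a, Dsg2, Dsg3, Dsc1, Dsc2, Dsc3, Dsp, Jup, Pkp1 or Pkp3. These are 10 genes of 31829 gene names on the array, with 14 probes on 23 spots. They comprise 6 desmosomal cadherins and 4 plaque proteins. Of the 10, 8 genes with 12 probes passed the filter on dim probes, and 17374 genes passed it in all.

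Transcript levels were compared between 15p and 0p cells of adult C3H/HeN mice, both sorted as CD49f+ CD34+ skin epithelial cells. The 0p cells are the starting population, sorted directly from primary skin cells. The 15p cells were collected by the same sort at the end of the 15th successive 10-day culture with Wnt-3a, in collagen-coated dishes of 60 mm. The comparison asked how far serial culture changed the expression profile of the cells. The labels give Wnt-3a as treatment for 15p and 0p alike, and do not settle whether 0p cells met it before lysis. Both RNAs were hybridised together, 1 in Cy5 and 1 in Cy3, on each of 4 arrays. Each of 2 biological replicates had a forward array (15p in Cy5) and a swapped array (15p in Cy3). No label ties the replicates to different animals, so the spread between these 2 samples may be technical. The p-values for 15p over 0p rest on that spread, drawn toward the spread shared by all tested genes.

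Desmosomes are junctions that hold neighbouring epithelial cells together. Desmogleins (Dsg) and desmocollins (Dsc) are calcium-dependent adhesion proteins that span the membrane and bind across the gap between cells. Plakoglobin (Jup) and the plakophilins (Pkp) bind their tails inside the cell, and desmoplakin (Dsp) ties this plaque to the keratin filaments. In epidermis, Dsg3 and Dsc3 are known for the lower, proliferative layers, whereas Dsg1 and Dsc1 are known for the upper, differentiated layers.

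A probe reads only the 60 bases it carries, so the sequences of probes for the plaque genes with the lowest ratios on a single array are shown here. They are written 5′ to 3′ in lower case as the deposited files give them, with no base singled out. The Dsp probe lies at chr13:38285480-38286579 of mouse build mm9 on the plus strand, where its bases are spread over 1100 bases of genome. The Jup probe lies at chr11:100238038-100238097 on the minus strand, in 1 unbroken stretch.
Dsp, single-spot probe: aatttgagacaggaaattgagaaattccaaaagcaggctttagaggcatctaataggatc
Jup: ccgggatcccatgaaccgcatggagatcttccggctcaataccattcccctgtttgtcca

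The second Dsp probe was printed 10 times and lies further along the gene, at chr13:38290121-38290180. The 9 cadherin probes lie in 1 cluster on chromosome 18, between 20122029 and 20761236 of mm9 (639 kb), with Dsc genes on the minus strand and Dsg genes on the plus strand. Pkp1 was read at chr1:137768027-137768086 on the minus strand. Pkp3 was read at chr7:148276140-148276199 on the plus strand, by a probe that lists 2 RefSeq transcripts. Which exon or UTR each probe lies in was not analysed here, since no annotation of mm9 was used.

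Across the arrays, 55.5% to 68.3% of spots were well above background in a dye, and no spot was saturated. The number of arrays limits the precision. The replicate 2 forward array stood apart: log2 ratios of 15p over 0p had an SD of 0.29 over all tested genes there, against 0.13 to 0.14 on the other arrays. Ratios of the arrays of a pair, which hold the same RNAs with the dyes exchanged, ran opposite across genes (Pearson's r = -0.55 in replicate 1 and -0.40 in replicate 2). Arrays of the same dye orientation ran together (r = 0.27 for the forward and 0.41 for the swapped arrays). Genes of 1 array are not independent replicates, and the effect of a slide cannot be told apart from that of a replicate, since each slide held 1 replicate. All 8 markers of basal keratinocytes, Krt5, Krt14 and the CD49f gene Itga6 among them, were well above background in both RNAs on all 4 arrays. The sort marker Cd34 was above it on 1 array in 0p and on none in 15p. Of the other bulge markers, Sox9 and Nfatc1 were above it in each RNA on every array, and Lgr5 and Lhx2 on 0. Markers of other cell types were mixed. Of 6 fibroblast markers, Col3a1 was above background in both RNAs on all 4 arrays, Col1a1 on 3 in each RNA, Col1a2 on 3 in 15p and 1 in 0p, and Dcn, Lum and Pdgfra on 0. Of 5 endothelial markers, Pecam1 and Flt1 were above it on all 4 and Cdh5, Emcn and Tek on 0. Among immune markers, 4 of 5 were above it on all 4, and Ptprc on 3 in each RNA. The part of such cells in the ratios was not tested.

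Transcripts of Dsg2, Dsg3, Dsc2, Dsc3, Dsp, Jup, Pkp1 and Pkp3 were detected in each RNA on every array, well above background. No member was called higher or lower in 15p cells (0 of 8 at an adjusted p of 0.05 by limma, the lowest being 0.749), where 0% of all 17374 tested genes were called. Before adjustment, 1 of 8 members, Dsg3, had a p under 0.05, against 6.30% of all tested genes. Mean log2 ratios of 15p over 0p, the arrays of a pair averaged first, ran from -0.14 for Dsp to 0.17 for Dsg3. Their median was -0.0011, with 4 above 0 and 4 below, beside a median of 0.0025 over all tested genes. The 95% interval that reached farthest from 0, that of Dsg3, ended at 0.32, a 1.25-fold difference. In RNA from sorted cells, fewer cells of a type and less RNA per cell cannot be told apart.

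The cadherins of the differentiated layers did not pass the scanner software's flag for spots well above background. Dsg1a, a desmoglein of the upper epidermis, had mean spot signals of 69.6, 66.2, 59.4 and 82.2 scanner units in 15p RNA and 58.9, 71.6, 97.1 and 73.8 in 0p RNA. These follow the order used throughout: replicate 1 forward and swapped, then replicate 2 forward and swapped. Dsc1, the desmocollin of the same layers, had 53.5, 57.6, 47.8 and 64.6 in 15p RNA and 53.7, 60.2, 88.4 and 58.4 in 0p RNA. None of these spots was well above background (0 of 4 arrays in either RNA for both genes), and no ratio is given. The medians of the negative control spots were 47.7 to 50.7 in Cy5 and 47.5 to 75.2 in Cy3. In their own dye and array, all 8 Dsg1a signals exceeded the 95th percentile of these controls, and 3 of 8 exceeded the highest control. For Dsc1, 3 of 8 signals exceeded the 95th percentile and 0 the highest control. Both genes had their highest signal in 0p RNA of the replicate 2 forward array, and in the same dye of that array the control spots also had their highest median. The paralogs Dsg1b and Dsg4 were likewise above background on 0 arrays. Dsg1c was above it on 1 array in 15p and 2 in 0p, with a probe that lists transcripts of both Dsg1c and Dsg1b, so these paralogs could not be told apart by it.

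**Figure D1:**
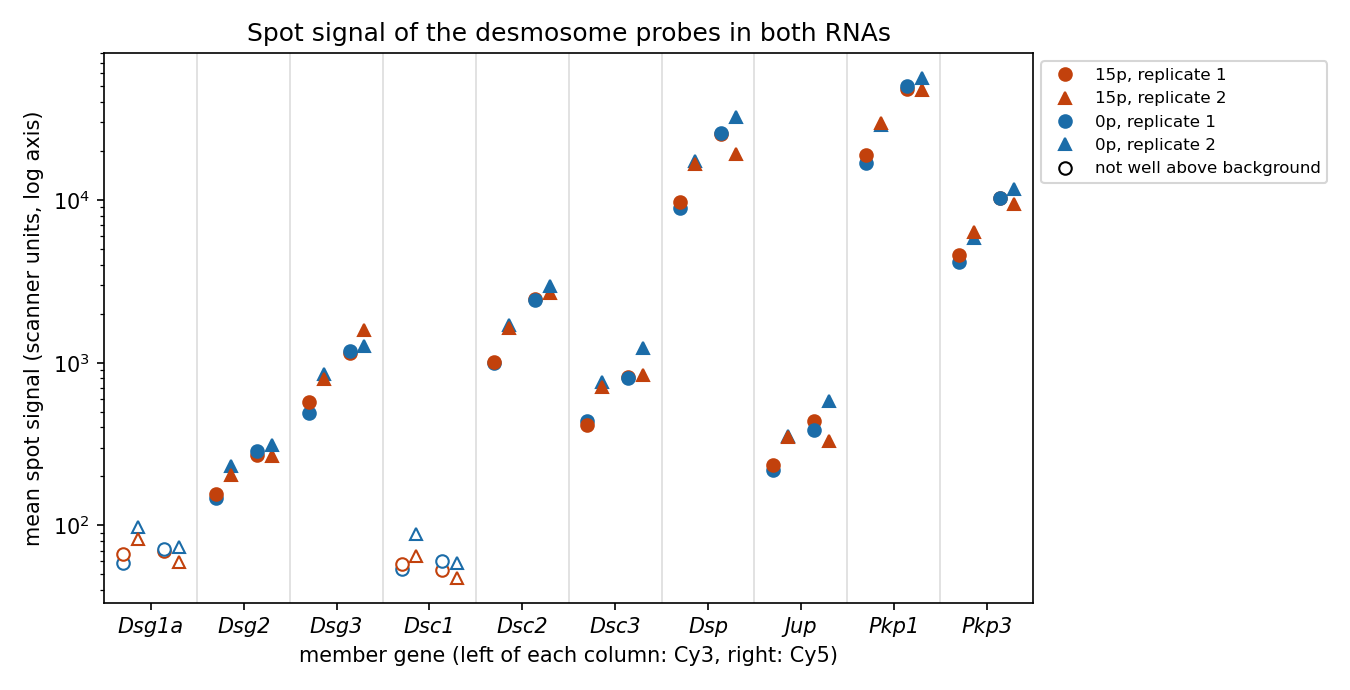
Mean spot signal in scanner units (log axis) of the probe that stands for each of the 10 member genes. Each column has Cy3 at its left and Cy5 at its right, orange for 15p and blue for 0p RNA, circles for replicate 1 and triangles for replicate 2, with open symbols where the spot was not well above background. Dsg1a and Dsc1 have open symbols only, up to 97.1 units, and the other 8 genes have filled symbols in both RNAs; levels of different probes are not comparable.

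Dsg2, the desmoglein found most widely among epithelia, had the ratio closest to 0. Its signals were 271, 157, 266 and 204 in 15p RNA and 147, 288, 231 and 310.3 in 0p RNA. In these unnormalised signals the higher RNA was the one in Cy5 on all 4 arrays. The same held for every other tested member except Jup, so it is not particular to Dsg2. After normalisation the log2 ratios were 0.022, -0.092, 0.11 and -0.031, positive on both forward and negative on both swapped arrays. The mean was 0.0013 ± 0.052 (SD, n = 2), with a 95% interval of -0.12 to 0.12 and an adjusted p of 0.996 by limma. Its second probe, nearer to background, gave -0.016 ± 0.011.

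Dsg3, a desmoglein of basal keratinocytes and the main autoantigen of pemphigus vulgaris, had the highest mean ratio among the members. Signals were 1153, 576, 1597 and 789.8 in 15p RNA and 489, 1187, 847 and 1269 in 0p RNA. The log2 ratios of 15p over 0p were 0.096, 0.025, 0.52 and 0.048. All 4 were above 0, and the replicate 2 forward array was far above the other 3. Dsg3 was the only tested member with the same sign on all 4 arrays (1 of 8, against 6.78% of all tested genes). Its mean was 0.17 ± 0.16 (SD, n = 2), with a 95% interval of 0.029 to 0.32 and an adjusted p of 0.749, so it did not pass (0.0233 before adjustment in the limma fit across all genes). The value was 0.032 with the scanner software's own processed signals, and 0.066 without the replicate 2 forward array. With processed signals the brightest probe was chosen anew. Whether that was the other Dsg3 probe, which had 0.035 in the main processing, was not tested. Without the replicate 1 forward array it was 0.28, in a fit of 3 arrays whose single forward array has no replicate.

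This probe lies at chr18:20699734-20699793. The other Dsg3 probe, at chr18:20698528-20698587, had lower ratios: -0.024, 0.023, 0.29 and -0.14, with a mean of 0.035 ± 0.051. That probe too was highest on the replicate 2 forward array. It did not share the single sign, since 2 of its 4 ratios were below 0.

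Dsc2, the broadly expressed desmocollin, had signals of 2478, 1015, 2677 and 1627 in 15p RNA and 991, 2414, 1694 and 2944 in 0p RNA. Its log2 ratios were 0.093, -0.12, 0.21 and -0.086. As with Dsg2, both forward arrays were positive and both swapped arrays negative. The mean of 0.023 ± 0.054 (SD, n = 2) had a 95% interval of -0.10 to 0.15 and an adjusted p of 0.937.

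Dsc3, the desmocollin of basal keratinocytes, had signals of 812, 415, 845 and 712 in 15p RNA and 441, 804, 766 and 1240.2 in 0p RNA. Log2 ratios were -0.24, 0.059, -0.21 and -0.045. Both forward arrays were lowest and lay close together, and 1 swapped array was above 0. Dsc3 was the only tested member whose largest ratio was not on the replicate 2 forward array. The mean was -0.11 ± 0.027 (SD, n = 2), with a 95% interval of -0.23 to 0.012 and an adjusted p of 0.749.

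A second Dsc3 probe, whose bases are spread over 2118 bases of genome, ran the other way on 3 of 4 arrays. It gave 0.041, -0.11, 0.30 and -0.28, with a mean of -0.014 ± 0.029. On the replicate 2 forward array both probes differed by 0.51 on the log2 scale, the widest gap between probes of a member. Over the 4 genes with a pair of kept probes (Dsg2, Dsg3, Dsc3 and Dsp), 9 of 16 array ratios had opposite signs.

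**Figure D2:**
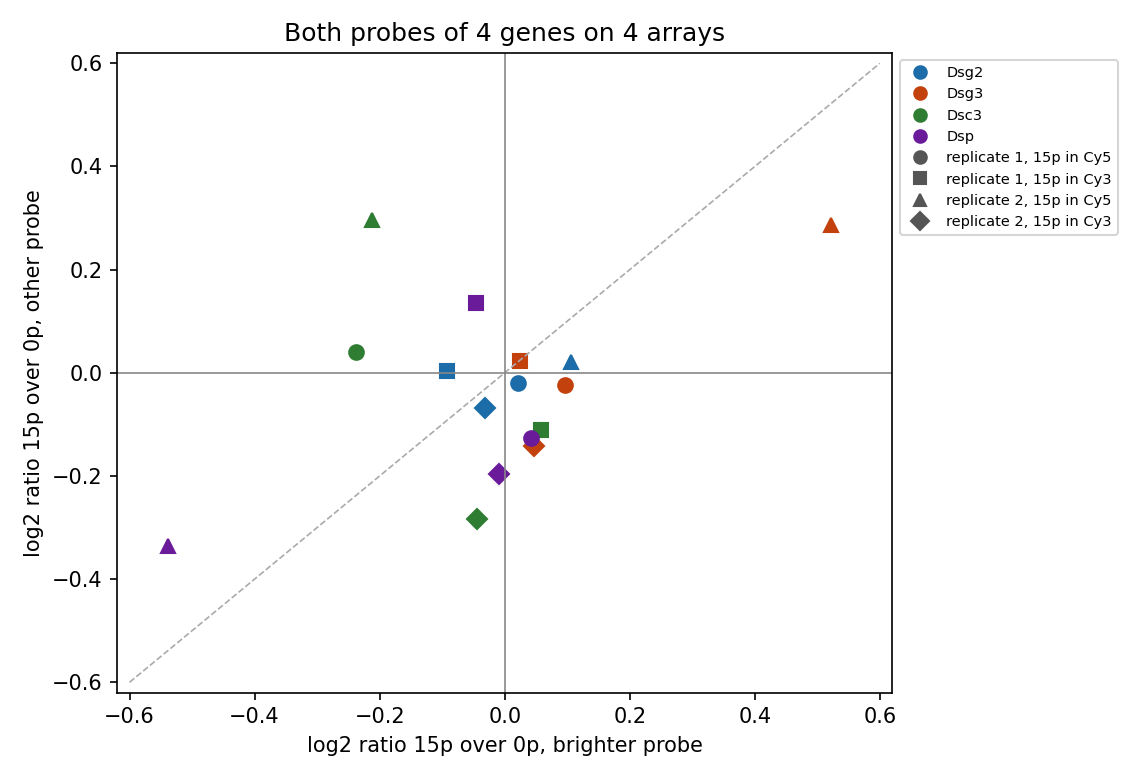
Log2 ratio of 15p over 0p of the brighter probe (x axis) and of the other probe (y axis) for Dsg2, Dsg3, Dsc3 and Dsp (colours) on each of 4 arrays (symbol shapes). Points on the dashed line have equal ratios; 9 of 16 points lie above the horizontal and left of the vertical zero line or the reverse, where the probes have opposite signs, and the widest gap, 0.51, is that of Dsc3 on the replicate 2 forward array.

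Among the plaque genes, desmoplakin had the lowest mean ratio, and in the probe that stands for it that mean came from 1 array. The probe printed 10 times had signals of 25311, 9736, 19272 and 16663 in 15p RNA and 8935, 25875, 17299 and 32357 in 0p RNA. Its log2 ratios were 0.042, -0.046, -0.54 and -0.0085. The arrays of replicate 1 and the swapped array of replicate 2 lay close to 0, and the replicate 2 forward array lay far below. The mean was -0.14 ± 0.19 (SD, n = 2), with a 95% interval of -0.29 to 0.016 and an adjusted p of 0.749. Without the replicate 2 forward array it was 0.0071. Without the replicate 1 forward array it was -0.28, again with a single forward array.

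The repeated spots show how closely a ratio was read within an array. Over its spots the Dsp probe had a ratio of 0.042 ± 0.019 (SD over 10 spots) and -0.046 ± 0.021 (10 spots) in replicate 1. In replicate 2 it had -0.54 ± 0.052 (10 spots) on the forward and -0.0085 ± 0.027 (8 spots, after 2 irregular ones) on the swapped array. On the forward array of replicate 2 the spots ran from -0.63 to -0.48, with no overlap with any other array. For this probe the low ratio was therefore shared by all 10 spots there, and was absent from the array that held the same RNAs with exchanged dyes. Of 243 kept probes printed 10 times, 6 had a lower ratio than Dsp on that array.

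The single-spot Dsp probe, whose sequence stands above, had signals of 322, 194, 291 and 297 in 15p RNA and 189, 318, 330 and 542 in 0p RNA. It gave log2 ratios of -0.13, 0.14, -0.34 and -0.20, with a mean of -0.13 ± 0.19. Both probes were lowest on the replicate 2 forward array. They differed in sign on both arrays of replicate 1. On the replicate 2 swapped array the single-spot probe was low too, at -0.20, where the repeated probe had -0.0085.

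**Figure D3:**
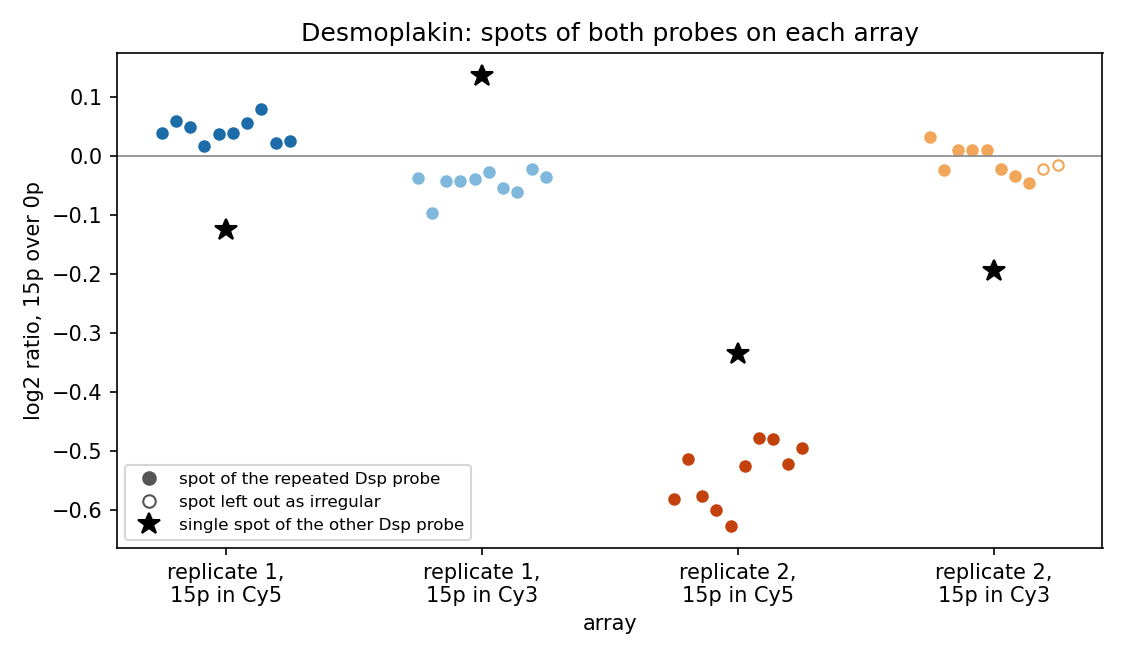
Log2 ratio of 15p over 0p (y axis) for each spot of the Dsp probe printed 10 times (circles, open where left out as irregular) and for the single spot of the other Dsp probe (stars) on each of 4 arrays (x axis). All 10 spots lie between -0.63 and -0.48 on the replicate 2 forward array (15p in Cy5) and near 0 on the other 3 arrays.

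Other genes had ratios like those of Dsp. The nearest tested genes by Euclidean distance over the 4 array ratios were Rlim (0.073), Sap18 (0.076), a probe without a gene symbol (0.077), Yeats4 (0.081) and Fem1b (0.081). Rlim, a ubiquitin ligase gene, had 0.089, -0.011, -0.50 and -0.015. Within a distance of 0.2 there were 376 genes.

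Plakoglobin (Jup), a relative of beta-catenin that binds both kinds of desmosomal cadherin, had signals of 440.2, 234, 329 and 351 in 15p RNA and 220, 386, 355 and 583 in 0p RNA. Its log2 ratios were 0.0029, 0.15, -0.31 and -0.070. Both arrays of replicate 2 were below 0 and both of replicate 1 above it, though the replicate 1 forward ratio was close to 0. In each replicate the swapped array was the higher, with a log2 Cy5 over Cy3 of -0.073 in replicate 1 and -0.12 in replicate 2. The mean ratio of 15p over 0p was -0.057 ± 0.19 (SD, n = 2). Its 95% interval was -0.21 to 0.096, with an adjusted p of 0.869 by limma. Without the replicate 2 forward array it was 0.021.

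Plakophilin 1 (Pkp1), the plakophilin of stratified epidermis, had signals of 47970.4, 18886, 47225 and 29693 in 15p RNA and 16869, 50266, 28747 and 56278.5 in 0p RNA. Log2 ratios were -0.048, 0.048, -0.11 and 0.094, negative on both forward and positive on both swapped arrays. They cancelled to a mean of -0.0036 ± 0.0054 (SD, n = 2), with a 95% interval of -0.12 to 0.12 and an adjusted p of 0.991. The small SD is that of the pair means and does not cover the dye difference, a log2 Cy5 over Cy3 of -0.048 in replicate 1 and -0.10 in replicate 2.

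Plakophilin 3 (Pkp3), which binds most desmosomal cadherins, had signals of 10280.5, 4591, 9457 and 6333 in 15p RNA and 4145, 10229, 5806 and 11637 in 0p RNA. Its log2 ratios of -0.033, 0.093, 0.15 and -0.043 were of both signs in each replicate. The mean was 0.042 ± 0.017 (SD, n = 2), with a 95% interval of -0.079 to 0.16 and an adjusted p of 0.875.

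**Figure D4:**
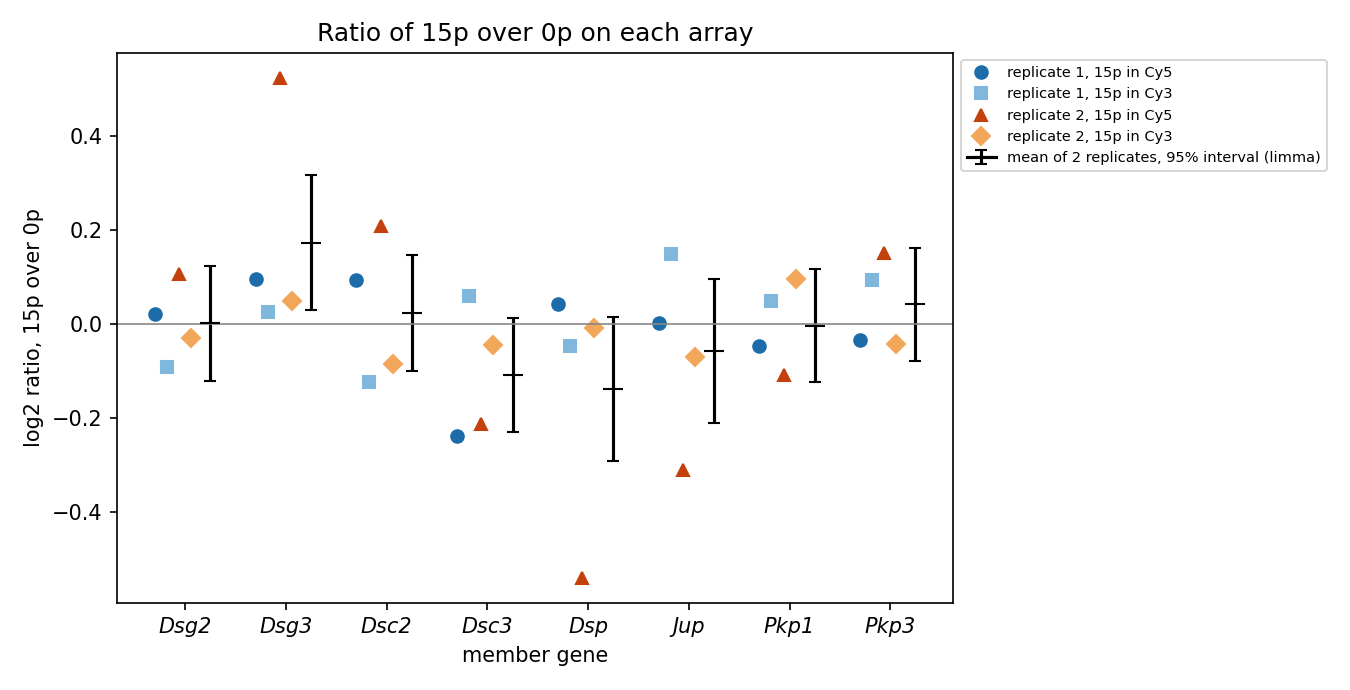
Log2 ratio of 15p over 0p (y axis) of the 8 tested members on each of 4 arrays (coloured symbols), with the mean of 2 replicates and its 95% interval from limma (black). The replicate 2 forward array (15p in Cy5, dark orange triangles) has the point farthest from 0 for 7 of 8 genes, and the interval of Dsg3 alone lies off 0, before adjustment over all genes.

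By role, the tested cadherins had 3 means above 0 and 1 below (median 0.012), and the plaque genes 1 above and 3 below (median -0.030), beside 8928 above and 8446 below among all tested genes. On the replicate 2 forward array alone, Dsg2, Dsg3, Dsc2 and Pkp3 were above 0 and Dsc3, Dsp, Jup and Pkp1 below. That array held the largest absolute ratio of 7 of 8 members, against 56.8% of all tested genes. The median absolute ratio of the members was 0.21 there and 0.045 to 0.076 on the other arrays. Over all tested genes it was 0.17 and 0.078 to 0.085. The part of that array in the members' means was not tested beyond the fits without it.

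Exchanging the dyes allowed the difference between dyes to be set beside the difference between RNAs, from the same 4 ratios. A ratio of 1 sign on both forward arrays and the other on both swapped arrays was seen for Dsg2, Dsc2 and Pkp1, or 3 of 8 members against 32.3% of all tested genes. The mean log2 ratio of Cy5 over Cy3 ran from -0.12 for Dsc3 to 0.14 for Dsg3. In absolute size it exceeded the 15p over 0p mean for 5 of 8 members, and for 66.4% of all tested genes. No member was called for a dye difference (0 of 8 by limma, lowest adjusted p = 0.526), where 3.80% of all tested genes were. Before adjustment 0 of 8 members had a p under 0.05, against 14.0% of all tested genes. This fit gave all genes 1 common spread.

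**Figure D5:**
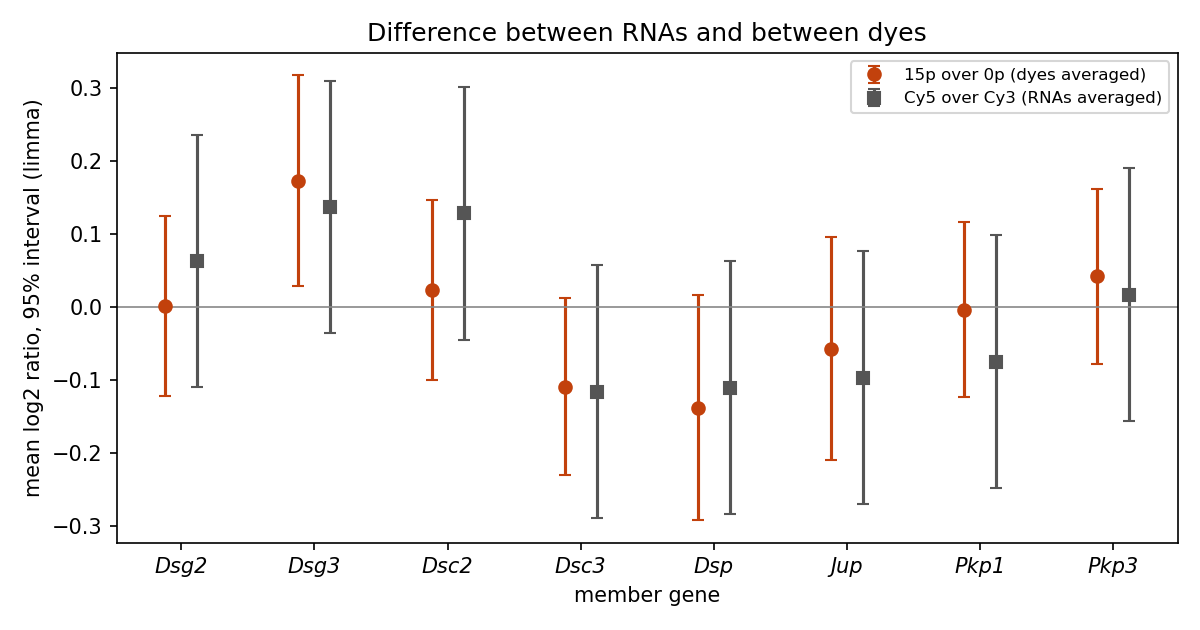
Mean log2 ratio of 15p over 0p with the dyes averaged (orange circles) and of Cy5 over Cy3 with the RNAs averaged (grey squares) for the 8 tested members, with 95% intervals from limma over 2 replicates. All 8 dye intervals and 7 of 8 RNA intervals span 0. The members' median absolute mean was 0.049 between RNAs and 0.10 between dyes. Over all tested genes it was 0.046 and 0.075.

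Other genes of the desmosome and its partners were read in the same fit. Of 30 listed, 24 were tested, and 0 were called higher and 0 lower by limma. There were 9 means above 0 and 15 below, with a median of -0.017. At an unadjusted p under 0.05 by limma were 4 of 24, against 6.30% of all tested genes. The paralog Pkp2, the plakophilin of heart and simple epithelia, had -0.054 ± 0.030 (SD, n = 2), and Pkp4 had -0.028 ± 0.081. Perp, a membrane protein of desmosomes, had -0.060 ± 0.068. The keratins that desmoplakin anchors in basal cells, Krt5 and Krt14, had 0.00042 ± 0.036 and 0.19 ± 0.12. The differentiation keratin Krt1 was above background on 0 arrays, whereas its partner Krt10 was above it on all 4 and had -0.017 ± 0.013. Of the 7 listed markers of differentiated keratinocytes, Ivl, Lor and Sbsn were, like Krt10, above background in both RNAs on all 4 arrays. Flg was above it on 1 array in 15p and 2 in 0p, and Lce1a1, like Krt1, on 0.

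The largest means of that list were 0.20 ± 0.17 for Cdh3, the P-cadherin of adherens junctions, and 0.20 ± 0.13 for Tgm1, which crosslinks the cornified envelope. Krt14 and the basal and bulge keratin Krt15 (0.17 ± 0.033) followed. On the arrays Krt15 had 0.31, -0.012, 0.48 and -0.093, positive on both forward and negative on both swapped arrays. Cdh3 was split in the same way. Krt14 had 0.085, 0.12, 0.73 and -0.18, and Tgm1 was above 0 on all 4 arrays. These SDs are those of pair means and do not cover the differences between arrays of a pair. None of the 4 passed (adjusted p = 0.749 each). For a dye difference, 2 of the 24 tested genes of the list were called by limma, against 3.80% of all tested genes. They were Cdh3, with a log2 Cy5 over Cy3 of 0.57 (adjusted p = 8.85e-08), and Krt5 with 0.28 (adjusted p = 0.0362).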

How the data were processed

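The intensity of each spot and of its local background in both dyes was taken from the deposited scanner files, extracted with Agilent Feature Extraction 10.7.3.1 per the file headers. The processed intensity and the log10 ratio in the deposited files, and the log10 ratios of the deposited value table, were used only as alternatives. The value table matched the files' log10 ratios of Cy5 over Cy3 to within 0.0045, with a median of 0 on every array.

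Intensities were background-corrected (normexp, offset 50) and normalised by loess within arrays, with limma 3.58.1 in R 4.3.3. Irregular spots were left out (154 to 286 an array), spots of a probe averaged, and a probe kept where either RNA was well above background on every array. The brightest probe stood for its gene. Log2 ratios of 15p over 0p, or of Cy5 over Cy3, were averaged within a dye-swapped pair, and 2 replicate values were tested against 0 (lmFit and eBayes, two-sided, Benjamini-Hochberg over 17374 genes at 0.05). Prior degrees of freedom were 8.89 for the RNAs, with 1 residual. The fit was tested on simulated data with equal, independent noise on every array. That test does not cover the wider spread of the replicate 2 forward array. Symbols came from RefSeq (GRCm38.p6), matched by accession for 26055 probes.

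The members, lists and named-gene rule (all members, paralogs, Perp, 4 further list genes with the largest means, the 5 genes nearest to Dsp, and 6 markers) were chosen with earlier results of these data known. Alternatives covered the background correction, normalisation, filter, probe choice, deposited ratios, pairing and leaving out arrays or replicates. Where the signals, ratios, normalisation or filter changed, the brightest probe was chosen anew, so the probe of a gene could change too. Whether numbers pair the arrays was checked by correlating same-numbered arrays' deviations from their orientation's mean, which gave r = -0.26, and the pairing was kept because the labels name the swaps.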

Additional observations from a re-analysis of the deposited data

Results flagged for a closer look

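For 3 members, both forward arrays had ratios of 1 sign and both swapped arrays the other. Their mean log2 ratios of Cy5 over Cy3 were 0.063 for Dsg2, 0.13 for Dsc2 and -0.075 for Pkp1. The difference between orientations was tested as the dye difference, and none of the 3 passed (limma, adjusted p = 0.832, 0.568 and 0.790).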

How the results depend on the processing

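Over 17 or 18 alternatives each, Dsg3 kept a positive and Dsc3 a negative mean in all 18. Several of these left every member's mean as it was, so they do not test its sign. These were quantile scaling between arrays, both changes of the filter, both 4-array fits with a dye term, and crossed pairing. No member was called in any fit of all 4 arrays. The replicate block with a dye term repeats the main test by construction. Its 0 genes and 0 members called and its median of -0.0011 are therefore no separate check. Crossed pairing, chosen after seeing the data like the probe swap and the dye fits without arrays, called 60 genes and 0 members, and no filter on dim probes called 1 gene. Fits of 3 arrays called 0 to 3120 genes and 0 to 2 members: 3120 without the replicate 1 forward array, 88 without the replicate 2 forward array, 1 without the replicate 2 swapped array. Both large counts rest on 1 common spread for all genes. The median over members was 0.028 with median centring, and ran from -0.0081 to 0.015 without an array or replicate.

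Dsg2 turned to -0.021 with processed signals, -0.0064 without background correction, -0.0074 with all probes averaged, -0.021 in the value table and -0.016 with its other probe. Pkp1 turned to 0.0085 with processed signals, 0.056 with median centring and 0.0085 in the value table. Without an array or replicate, Dsg2 ran from -0.035 to 0.038, Pkp1 from -0.019 to 0.012, Dsc2 from -0.015 to 0.062, Dsp from -0.28 to 0.0071, Jup from -0.19 to 0.076 and Pkp3 from -0.0042 to 0.087. The count of genes called for the dye, 661, was 252 with processed signals, 257 in the value table, 1435 without the filter, 1077 with a replicate block and 0 to 5566 without an array, with 0 to 4 members. The cause of these shifts was not tested.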
